A study of Mus musculus with 18 samples.

Results

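A set of 9 genes of the complement system was followed on the deposited microarrays of glomerular cells from *Cd2ap* mutant mice. The set held the components *C3*, *C4b*, *Cfb*, *Cfd*, *C1ra* and *Masp1* and the regulators *Cd55*, *Cd59a* and *Serping1*. They were found by gene symbol among the 22909 different symbols of the array table, and where a gene had several transcript clusters (the array's units of about 1 gene) the cluster with the highest mean signal over all arrays was taken.

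Podocytes, mesangial cells and endothelial cells were profiled from homozygous *Cd2ap* mutants (CD2AP-/-) and controls at 5 weeks of age, with 3 arrays in each of the 6 groups. CD2AP is a slit diaphragm adapter protein, and the mutant line (B6.129X1-*Cd2ap*tm1Shaw/J) carries the mutation in every cell and is a model of focal segmental glomerulosclerosis. Cells were sorted for GFP driven by a podocyte transgene, by *Meis1* for mesangial cells or by *Tie2* for endothelial cells, so each cell type came from its own reporter line and cell type and line cannot be told apart. In the array headers the mesangial controls have the genotype mark of a heterozygote (+:-), unlike the podocyte and endothelial controls. Their GEO source name is control mesangial, where that of the other controls says wild type. The GEO sample records nevertheless call them wild type, so which of these they were is not settled.

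Complement is a cascade of serum and tissue proteins that is triggered by the classical, lectin or alternative pathway and converges on the cleavage of C3. Membrane regulators such as CD55 and CD59 protect a host cell from complement on its own surface, and the C1 inhibitor blocks the proteases that start the classical and lectin pathways. The glomerulus is a common site of complement deposition in kidney disease, and podocytes, mesangial cells and endothelial cells can all make complement proteins.

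The signals were on the linear RMA scale, on which the median transcript cluster of an array lay between 62.8 and 71.6, and 9697 to 10097 clusters per array reached 100, the study's minimum for a measurable gene. Arrays of 1 group correlated with r between 0.967 and 0.992. The lowest values were those of mutant podocytes (0.967 to 0.971), and the other groups were at 0.9797 or above. For *Cd2ap* itself the log2 difference of mutants was -0.31 in mesangial cells (unadjusted p = 0.0189, adjusted p = 0.151, limma, and -0.24 without control array C), -0.23 in podocytes (adjusted p = 0.504) and 0.18 in endothelial cells (0.336). All mutant arrays lay below all controls in mesangial cells (at most 870 against at least 922) and podocytes (1512 against 1546) and above them in endothelial cells. No difference passed, so all directions below rest on the labels. The marker lists of the 3 sorted cell types were each highest in their own cells. The podocyte list summed to 12488 to 15211 in podocytes, the endothelial list to 15671 to 18197 in endothelial cells and the mesangial list to 7842 to 10319 in mesangial cells. Wild type podocytes also gave endothelial sums of 4434 to 5877 and mesangial sums of 3109 to 4002, against 650 to 769 for the mesangial list in wild type endothelial cells, and the part of these markers in the differences between cell types was not tested. The wild type mesangial array C stood apart, with a podocyte marker sum of 3838 against 929 and 1079 on the other wild type mesangial arrays, an endothelial sum of 7776 against 2362 and 2748, and a tubule sum of 1857 against 463 and 453. Mutant mesangial array B had a leukocyte sum of 2338 against 782 and 715, and parietal epithelial sums were 2467 to 2810 in mutant and 1776 to 1888 in control mesangial cells. Differences between cell types and genotype effects in mesangial cells that rest on wild type mesangial array C are also given without that array.

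**Figure D1:**
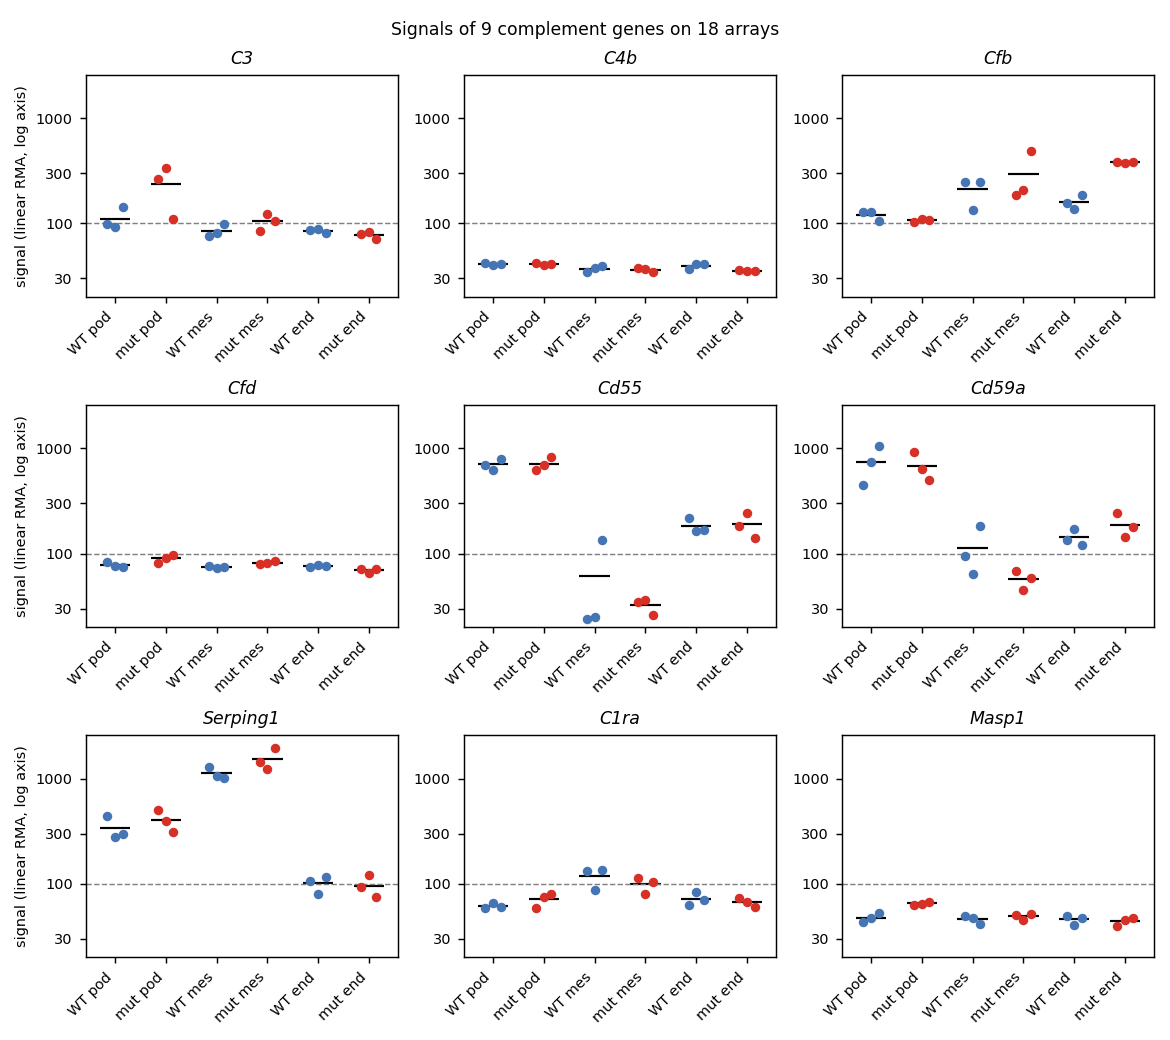
Signal of each of the 9 complement genes (linear RMA units on a log axis) on every array, with wild type in blue and mutant in red. Points are arrays A to C from left to right, bars are group means, and the dashed line is the minimum of 100. *Cd55* and *Cd59a* were highest in podocytes, *Serping1* in mesangial cells, and *Cfb* was near 380 on all 3 mutant endothelial arrays.

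To ask where complement genes were expressed in control cells, the 9 control arrays were compared between cell types in 1 limma fit. A gene passed with an adjusted p below 0.05 and a fold over 1.5. Of the 9 genes, 6 had a signal of 100 on at least 1 of these arrays and were tested. In podocytes against mesangial cells 2 were higher and 3 lower, where 15.1% of all 12537 clusters tested passed, 5.9% higher and 9.24% lower. In podocytes against endothelial cells 3 were higher and 0 lower (21.5% of all clusters passed, 9.83% higher and 11.6% lower), and in mesangial against endothelial cells 2 were higher and 1 lower (17.5%, 9.58% higher and 7.91% lower). Cell types did not overlap at all for 46% of clusters in the first of these comparisons, 50.8% in the second and 47% in the third. The median log2 difference of the 6 was -0.20, 1.05 and 0.17 in these comparisons, against -0.03, -0.02 and -0.01 over all clusters. Both comparisons with mesangial cells count *C1ra* among the calls, a gene that reached 100 only on mesangial arrays. It entered the test through the cells where it was high, so its part in these counts was set in part by the signal minimum.

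*Cd55* encodes decay-accelerating factor, a membrane protein that breaks up the C3 convertases. Its signals in wild type podocytes were 700.0, 627.3 and 791.3, those in endothelial cells 217.0, 164.3 and 167.2, and those in mesangial cells 24.2, 24.8 and 133.5. The 3 cell types did not overlap, podocytes being the highest and mesangial cells the lowest, and the mesangial array with the high value was C. Signals under 100 are taken as not measurable, so where arrays of the lower group lay there the fold is a lower bound, computed with those arrays at 100, beside the measured log2 difference. *Cd55* was at least 6.39-fold higher in podocytes than in mesangial cells, where 2 of 3 arrays were under 100 (measured log2 difference 4.03 ± 0.54 SE, adjusted p = 4.98e-04), and at least 7.03-fold higher without mesangial array C (measured 4.84, adjusted p = 5.71e-08). It was 3.88-fold higher in podocytes than in endothelial cells (1.96 ± 0.54, adjusted p = 0.0178), which no longer passed in 3 of 6 fits with 1 array left out (without podocyte array C or endothelial array B or C, adjusted p up to 0.0590) and with no signal minimum (0.0512). Endothelial cells in turn lay at least 1.65-fold above mesangial cells and at least 1.81-fold without mesangial array C, the measured log2 difference of mesangial against endothelial cells being -2.07 ± 0.54 (adjusted p = 0.0168) and -2.89. This too no longer passed in 3 of 6 fits with 1 array left out (without mesangial array A or B or endothelial array A, adjusted p up to 0.0617). In these bulk samples fewer cells of a type and less RNA per cell cannot be told apart. A second cluster that carries the symbol of *Cd55* together with *Daf2* was near background on all arrays.

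*Cd59a* encodes the glycolipid-anchored inhibitor of the membrane attack complex. Its cluster is shared with the paralog *Cd59b*, so the signals of the pair cannot be split. Wild type podocytes gave signals of 445.8, 749.8 and 1043, endothelial cells 134.6, 173.4 and 121.4, and mesangial cells 95.8, 64.4 and 181.3. All podocyte arrays lay above all others, while endothelial and mesangial arrays overlapped. The gene was at least 5.77-fold higher in podocytes than in mesangial cells (measured log2 difference 2.76 ± 0.39 SE, adjusted p = 6.01e-04, and 3.16 without mesangial array C) and 4.97-fold higher than in endothelial cells (2.31 ± 0.39, adjusted p = 0.00118). Mesangial and endothelial cells differed by -0.45 ± 0.39 (adjusted p = 0.412, 95% interval -1.31 to 0.42), and by -0.85 without mesangial array C (unadjusted p = 0.0270, adjusted p = 0.0782). Both membrane regulators were thus at their highest level in podocytes.

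*Serping1* encodes the C1 inhibitor, which blocks the C1r, C1s and MASP proteases. Its signals were 1290, 1058 and 1010 in wild type mesangial cells, 438.3, 280.6 and 300.9 in podocytes, and 105.7, 80.5 and 116.8 in endothelial cells. The 3 cell types were fully separate, in the order mesangial, podocyte, endothelial. The level in mesangial cells was at least 10.4-fold that in endothelial cells, where 1 of 3 arrays was under 100 (measured log2 difference 3.48 ± 0.19 SE, adjusted p = 1.21e-06) and 3.34-fold that in podocytes (podocytes against mesangial cells -1.74 ± 0.19, adjusted p = 1.49e-04). Podocytes lay at least 3.11-fold above endothelial cells (measured 1.74 ± 0.19, adjusted p = 1.07e-04), and the mesangial marker sums were in the same order, at 3109 to 4002 in podocytes, 650 to 769 in endothelial cells and 9251 to 10319 in mesangial cells. Their part in the *Serping1* differences was not tested. Without mesangial array C the differences with mesangial cells were 3.55 and -1.81.

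*C1ra* encodes the C1r protease of the first classical pathway complex. It was low, with 131.8, 87.3 and 135.9 in wild type mesangial cells, 59.3, 66.1 and 60.0 in podocytes, and 63.6, 84.1 and 69.7 in endothelial cells. Only mesangial arrays reached 100, and every mesangial array lay above every other wild type array. It entered the test through these mesangial arrays only. *C1ra* was at least 1.16-fold higher in mesangial cells than in either, with measured differences of -0.91 ± 0.17 SE in podocytes against mesangial cells (adjusted p = 0.00371) and 0.69 ± 0.17 in mesangial against endothelial cells (adjusted p = 0.0135). Without mesangial array C the first difference was -0.80 (adjusted p = 0.0103), and the second was 0.58, a fold under 1.5, and no longer passed. With 50 added to the signal neither passed (-0.58 and 0.45). The cluster that *C1ra* shares with its paralog *C1rb* also had its highest mean in mesangial cells, near the minimum, at 96.2 ± 13.1 (SD, n = 3) against 50.8 ± 3.17 in podocytes and 45.8 ± 5.41 in endothelial cells.

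*Cfb* encodes factor B, the alternative pathway protease that joins C3b in the C3 convertase. It was above 100 on all 18 arrays. The wild type signals were 246.8, 134.1 and 250.4 in mesangial cells, 156.8, 136.4 and 186.2 in endothelial cells, and 127.2, 127.2 and 105.0 in podocytes. Podocytes were lowest on every array. The podocyte level was 1.70-fold lower than the mesangial one (-0.76 ± 0.23 SE, adjusted p = 0.0343), and this was lost without mesangial array C (-0.61, adjusted p = 0.0928) and, when single arrays were left out, in 5 of 6 cases. It was also lost with no signal minimum (adjusted p = 0.0724), with all 18 arrays in 1 fit (0.0639) and with 50 added to the signal (-0.58, a fold under 1.5). Podocytes and endothelial cells (-0.41 ± 0.23, adjusted p = 0.195) and mesangial and endothelial cells (0.35 ± 0.23, adjusted p = 0.276, and 0.20 without mesangial array C) did not differ by the test, but the latter pair did without mesangial array B (0.65, adjusted p = 0.0134).

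*C3*, the central component of all 3 pathways, was near the minimum in wild type cells, at 98.9, 92.4 and 142.3 in podocytes, 76.3, 80.3 and 99.2 in mesangial cells and 86.2, 88.9 and 80.6 in endothelial cells. Its log2 difference was 0.37 ± 0.16 SE in podocytes against mesangial cells (adjusted p = 0.129), 0.36 ± 0.16 against endothelial cells (0.118) and -0.01 ± 0.16 in mesangial against endothelial cells (0.977). Without mesangial array C the first was 0.48 (adjusted p = 0.0689) and the last -0.12 (0.646). *C4b*, whose protein forms the classical and lectin C3 convertase, was between 34.8 and 42.3 on all 18 arrays, on a cluster shared with *C4a*. *Cfd*, the protease that activates factor B, was between 66.1 and 97.6. *Masp1*, a protease of the lectin pathway, was between 39.9 and 67.1. These last 3 genes never reached 100 and were not tested.

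Promoters of *Cd55* and *C3* are shown, the first for the differences of its gene between wild type cell types and the second for the mutant podocytes described below. RefSeq promoter entries (GRCm38.p6) matched *C3*, *Cfd*, *Cd55*, *Cd59a* and *C1ra*, 5 of the 9 members, and not *C4b*, *Cfb*, *Serping1* and *Masp1*. Each run is the 250 bases before the gene's start, 5′ to 3′ on the gene's strand, at chr1:130462745-130462994 on the minus strand for *Cd55* and chr17:57228137-57228386 on the minus strand for *C3*. Capitals mark matches on either strand to any of 3 motifs, which were a homeobox core (TAATTA), a GC box (GGGCGG) and a C/EBP motif (TTGCNNAA), and no matches overlap.
Cd55: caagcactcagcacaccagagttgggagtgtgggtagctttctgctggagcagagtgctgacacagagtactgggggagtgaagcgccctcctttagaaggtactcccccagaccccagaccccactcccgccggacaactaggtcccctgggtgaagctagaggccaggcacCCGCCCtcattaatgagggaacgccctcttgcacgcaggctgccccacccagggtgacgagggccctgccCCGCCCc
C3: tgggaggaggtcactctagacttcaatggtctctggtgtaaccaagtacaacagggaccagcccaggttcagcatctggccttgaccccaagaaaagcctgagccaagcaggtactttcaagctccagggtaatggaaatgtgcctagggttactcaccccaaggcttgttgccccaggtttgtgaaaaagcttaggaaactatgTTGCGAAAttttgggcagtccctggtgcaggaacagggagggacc
The *Cd55* window held 2 GC box matches, a motif found in 32.7% of the 32851 mouse promoter windows of this length. The *C3* window held a C/EBP match at 45 bases before the start (9.56% of windows). The homeobox core, which 4.84% of windows hold, was in neither, and the windows of *Cd59a*, *Cfd* and *C1ra* held no match to any of the 3 motifs. A match is a description of letters and not a binding site.

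To ask whether the *Cd2ap* mutation changed complement genes, mutant and control arrays were compared within each cell type, with the low stringency screen of the study's methods (unadjusted p below 0.05 and fold over 1.5). In endothelial cells 1 of the 4 members tested rose (*Cfb*) and 0 fell, where 3.82% of 11330 clusters passed, 2.96% upward and 0.865% downward. In podocytes 1 of 5 rose (*C3*) and 0 fell, where 5.61% of 12113 clusters passed, 1.26% upward and 4.34% downward. In mesangial cells 0 of 6 passed by limma, and 0 had an unadjusted p below 0.05, where 5.19% of 11457 clusters passed, 2.08% upward and 3.12% downward. After adjustment *Cfb* in endothelial cells was the only member below 0.05 among those tested. Upward calls made up 77.4% of all calls in endothelial cells and 22.5% in podocytes, and these shares were 65.9% and 33.7% under quantile normalization, with 87.7% in endothelial cells when array medians were subtracted. An adjusted p below 0.05 with a fold over 1.5 was reached by 1.13% of all clusters in endothelial cells, 0.0578% in podocytes and 2.2% in mesangial cells. Arrays of the 2 genotypes did not overlap for 25.1%, 21.3% and 28.6% of clusters respectively, with the mutants higher for 17.7%, 6.97% and 12.3%. The median log2 difference of the tested members was 0.20 in endothelial cells, 0.02 in podocytes and 0.02 in mesangial cells, against 0.07, -0.04 and -0.02 over all clusters.

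**Figure D2:**
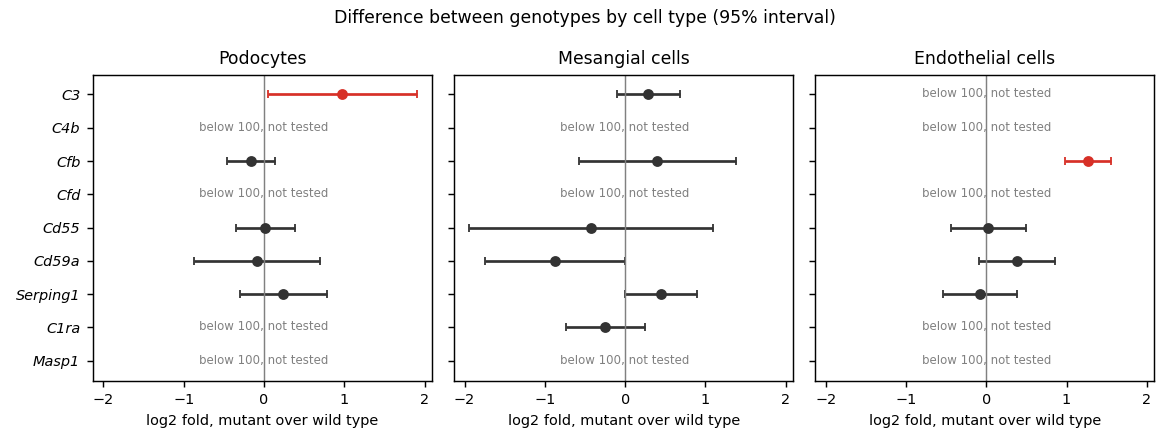
Log2 fold of mutant over wild type for each complement gene in each cell type, with the 95% interval of the limma fit. Red marks genes that passed the screen, *C3* in podocytes (0.97) and *Cfb* in endothelial cells (1.27), and genes below a signal of 100 on all arrays compared were not tested.

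*Cfb* was the member with the clearest difference between genotypes. In endothelial cells its signals were 382.8, 378.6 and 384.0 on the mutant arrays and 156.8, 136.4 and 186.2 on the control arrays. The mutant arrays lay within 6 signal units of each other and all above the controls, a separation in this direction that 17.7% of clusters showed. The mean was 381.8 ± 2.85 (SD, n = 3) against 159.8 ± 25.0, a 2.41-fold increase (log2 difference 1.27 ± 0.12 SE, 95% interval 0.99 to 1.55, adjusted p = 0.00404). Leaving out 1 array at a time gave 1.16 to 1.38 with adjusted p between 0.0123 and 0.0275. Leukocyte marker sums on the same arrays were 1414, 989 and 745 in mutants and 677, 793 and 854 in controls, and 0 of the 4 leukocyte markers tested passed the screen. The part of leukocytes in the result was not tested.

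In mesangial cells *Cfb* was 188.1, 207.1 and 489.5 in mutants and 246.8, 134.1 and 250.4 in controls. The groups overlapped, and the high mean of the mutants came from array C alone. The log2 difference was 0.40 ± 0.41 SE (adjusted p = 0.615), -0.04 without that array and 0.55 without control array C. In podocytes *Cfb* was 103.5, 109.2 and 107.6 in mutants and 127.2, 127.2 and 105.0 in controls, with a difference of -0.16 ± 0.13 (adjusted p = 0.596). The effect of the mutation on *Cfb* differed between endothelial cells and podocytes by 1.43 ± 0.41 (unadjusted p = 0.00287, adjusted p = 0.0713, interaction contrast over 18 arrays) and between endothelial and mesangial cells by 0.87 ± 0.41 (adjusted p = 0.310, and 0.71 without control mesangial array C). Neither interaction passed after adjustment, where 2.11% and 1.07% of 13523 clusters did, and between podocytes and mesangial cells (0.717% of clusters) 0 members passed either. Some other settings changed this for *Cfb*. Its endothelial against mesangial interaction was 1.30 without mutant mesangial array C and passed (adjusted p = 0.0448). The one with podocytes passed with array medians subtracted (1.53, adjusted p = 0.0382) and without mutant podocyte array A (1.41, adjusted p = 0.0475).

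*C3* in podocytes was 264.6, 338.9 and 109.7 on the mutant arrays and 98.9, 92.4 and 142.3 on the control arrays. Mutant arrays A and B were above all controls, while mutant array C lay below the highest control. The mean was 237.7 ± 117 (SD, n = 3) against 111.2 ± 27.1, with a measured log2 difference of 0.97 ± 0.40 SE (95% interval 0.05 to 1.90, unadjusted p = 0.0421, limma). Control arrays A and B were under 100, so no exact fold is given. The difference did not pass adjustment (adjusted p = 0.332), and it left the screen without mutant array A (0.82), mutant array B (0.64), control array A (0.90) or control array B (0.85). Without mutant array C the difference was 1.46 (adjusted p = 0.108).

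The podocyte arrays also differed in markers of other cells. Endothelial marker sums were 2668, 1245 and 778 in mutant podocytes and 4935, 5877 and 4434 in controls, and 8 of the 8 endothelial markers were lower by the screen. Mesangial sums were 3658, 3293 and 1192 in mutants and 4002, 3508 and 3109 in controls, so that mutant array C, the one with the lowest *C3*, was the lowest in both lists. Parietal epithelial sums were 1167, 1222 and 712 against 788, 688 and 627, and 2 of the 4 parietal markers tested were higher. The same list summed to 1776 to 1888 in control mesangial cells, so it does not single out parietal cells here. Leukocyte sums overlapped, at 1142, 765 and 748 against 811, 1248 and 966, and 1 of the 6 leukocyte markers tested was higher (*Csf1r*, log2 difference 0.62, unadjusted p = 0.0117). The part of these markers in the *C3* result was not tested.

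**Figure D3:**
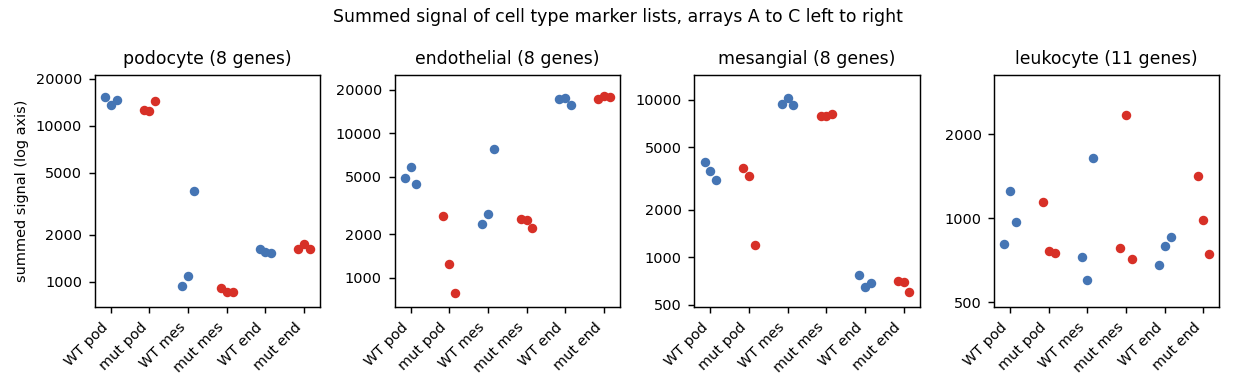
Summed signal (log axis) of the podocyte, endothelial, mesangial and leukocyte marker lists on every array, wild type in blue and mutant in red, arrays A to C from left to right. Endothelial sums were 4434 to 5877 in wild type podocytes and 778 to 2668 in mutant podocytes, and wild type mesangial array C stands above its group in the podocyte, endothelial and leukocyte lists.

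In mesangial cells *C3* was 84.8, 123.3 and 105.9 in mutants and 76.3, 80.3 and 99.2 in controls, with a log2 difference of 0.29 ± 0.17 SE (adjusted p = 0.368) and 0.40 without control array C. In endothelial cells it stayed below 100 on all arrays, at 79.3, 83.8 and 71.6 in mutants and 86.2, 88.9 and 80.6 in controls, and was not tested. The effect on *C3* in podocytes differed from that in mesangial cells by 0.69 ± 0.42 (adjusted p = 0.548, and 0.57 without control mesangial array C). With single arrays left out this ranged from 0.35 to 1.17. The endothelial effect differed from the podocyte one by -1.10 ± 0.42 (unadjusted p = 0.0182, adjusted p = 0.135, interaction contrast). Without mutant podocyte array C it was -1.58 (adjusted p = 0.0103), with the endothelial signals all under 100.

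The membrane regulators showed no difference that passed in any cell type. *Cd55* in podocytes was 625.4, 691.7 and 834.7 in mutants against 700.0, 627.3 and 791.3 in controls. The groups overlapped fully, and the difference was 0.02 ± 0.16 on the log2 scale (adjusted p = 0.968, 95% interval -0.35 to 0.38). In endothelial cells *Cd55* was 183.2, 243.8 and 141.2 against 217.0, 164.3 and 167.2 (0.03 ± 0.20, adjusted p = 0.955). In mesangial cells the mutant arrays were at 34.9, 36.3 and 26.3, and only the control array C reached 100, with a log2 difference of -0.42 ± 0.64 (adjusted p = 0.740), so without that array the gene was not tested.

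*Cd59a* in podocytes was 917.1, 637.0 and 499.4 in mutants against 445.8, 749.8 and 1043 in controls (-0.09 ± 0.34, adjusted p = 0.928, 95% interval -0.87 to 0.70). In endothelial cells it was 241.6, 145.4 and 178.5 against 134.6, 173.4 and 121.4 (0.38 ± 0.20, adjusted p = 0.351). In mesangial cells it was 68.9, 44.9 and 59.3 against 95.8, 64.4 and 181.3, a log2 difference of -0.87 ± 0.37 (unadjusted p = 0.0508, adjusted p = 0.232). These mesangial groups overlapped, and here too only control array C was at 100 or more, so without it the gene was not tested. The unadjusted p fell to between 0.0270 and 0.0474 under 4 of the other settings, so that the gene passed the screen there. The endothelial effect on *Cd59a* differed from the mesangial one by 1.25 ± 0.50 (adjusted p = 0.238), and by 0.85 without control mesangial array C (adjusted p = 0.436).

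*Serping1* was 1437, 1231 and 1964 in mutant mesangial cells and 1290, 1058 and 1010 in controls. The mean was 1544 ± 378 (SD, n = 3) against 1119 ± 150, the lowest mutant array lay below the highest control, and the log2 difference was 0.44 ± 0.19 SE (unadjusted p = 0.0504, adjusted p = 0.231) and 0.37 without control array C. It was 0.59 without mutant array B, the one with the high leukocyte sum, and passed the screen there (unadjusted p = 0.0175), and the part of leukocytes was not tested. Without mutant array C, the highest at 1964, the difference was 0.26 (unadjusted p = 0.127). In podocytes the signals were 499.1, 398.3 and 308.3 against 438.3, 280.6 and 300.9 (0.24 ± 0.23, adjusted p = 0.666), and in endothelial cells 93.6, 120.2 and 74.3 against 105.7, 80.5 and 116.8 (-0.08 ± 0.20, adjusted p = 0.848). *C1ra* in mesangial cells was 113.2, 80.4 and 103.3 against 131.8, 87.3 and 135.9 (-0.24 ± 0.21, adjusted p = 0.539, and -0.13 without control array C), and it was below 100 in the other cells. Members under the minimum in a cell type made up 12 cases that were not tested, of which 2 had all mutant arrays above the controls, 2 had them below and 8 overlapped. *Masp1* in podocytes was 63.5, 64.6 and 67.1 in mutants against 43.2, 47.9 and 52.3 in controls, a separation upward that 11.5% of clusters under the minimum showed, and its second cluster had a lower mean in mutants (33.0 ± 1.59 against 36.4 ± 1.67). *Cfd* was 80.4 to 85.1 against 73.5 to 75.8 in mesangial cells (9.21% of such clusters upward). In endothelial cells *Cfd* was 66.1 to 72.2 against 74.4 to 78.3 and *C4b* 35.2 to 36.4 against 37.3 to 41.4 (18.5% downward).

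The rest of the complement system was read from a list of 51 gene names, of which 46 were found on the array. Between genotypes 0 of 11 clusters tested passed the screen in mesangial cells, although 3 had an unadjusted p below 0.05, and 0 of 9 passed without control array C. In podocytes 1 of 9 was higher (1.26% of all clusters) and in endothelial cells 1 of 10 (2.96%), with 0 lower in either, and neither was below 0.05 after adjustment. *Clu*, which encodes the fluid phase inhibitor clusterin, was 712, 256 and 140 in mutant podocytes against 113, 149 and 117 in controls (1.23 ± 0.52 SE, unadjusted p = 0.0451, adjusted p = 0.339). As for *C3*, mutant array C was the lowest and overlapped the controls. With single arrays left out, a setting added after the data were seen, *Clu* passed the screen in 1 of 6 fits, with 0.60 without mutant array A and 1.77 without mutant array C. *Cd93*, a membrane protein once described as a C1q receptor, was 1393, 920 and 1288 in mutant endothelial cells against 718, 433 and 556 in controls (1.09 ± 0.21, unadjusted p = 0.00102, adjusted p = 0.0566). All mutant arrays of *Cd93* lay above all controls, and it passed the screen in 6 of 6 such fits (0.90 to 1.27).

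**Figure D4:**
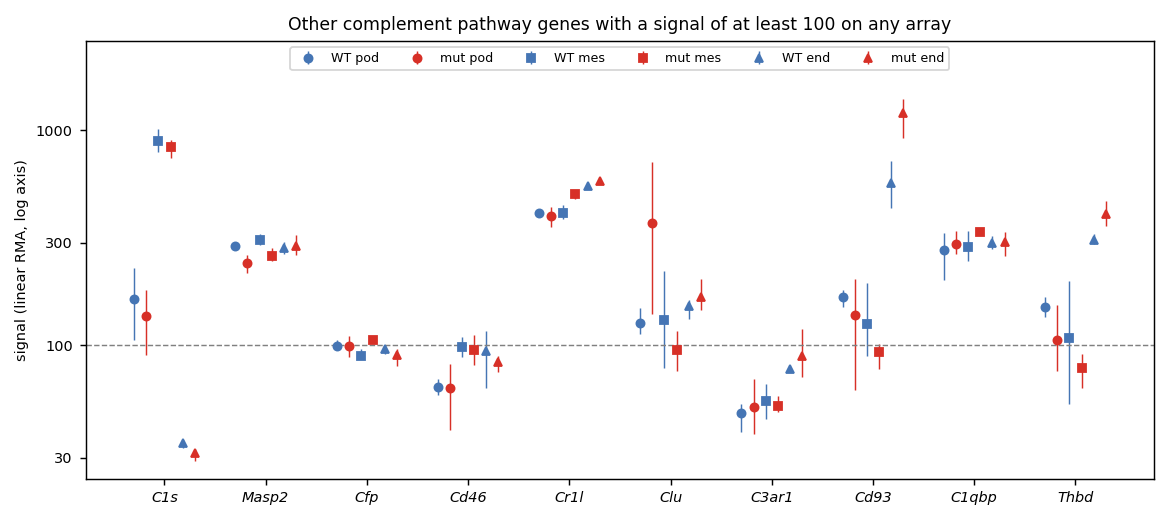
Mean signal (log axis) of the other complement genes that reached 100 on any array, with the lowest and highest of 3 arrays as bars, circles for podocytes, squares for mesangial cells and triangles for endothelial cells, wild type in blue and mutant in red. *C1s* was high in mesangial cells and *Cd93* and *Thbd* in endothelial cells; the *Masp2* cluster is shared with *Tardbp* and the *C1s* cluster with *Gm5077*.

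Between wild type cells 11 clusters of this list were tested. In podocytes against mesangial cells 1 was higher and 3 lower (5.9% and 9.24% of all clusters), in podocytes against endothelial cells 2 were higher and 1 lower (9.83% and 11.6%), and in mesangial against endothelial cells 2 were higher and 2 lower (9.58% and 7.91%). These counts include the clusters that *Cd59a* and *C1ra* share with their paralogs. On wild type arrays the *C1ra* and *C1rb* cluster reached 100 only in mesangial cells (at most 108.6, against 54.3 in podocytes and 51.2 in endothelial cells). It thus entered the test through the cells where it was high. Its lower bound was 0.956-fold against either cell type, so no difference is read from its calls. *C1s*, the protease partner of C1r, had a mean of 892 ± 109 (SD, n = 3) in mesangial cells, 165 ± 61.8 in podocytes and 35.2 ± 1.63 in endothelial cells. It was at least 8.88-fold higher in mesangial than in endothelial cells, all under 100 (measured log2 difference 4.66 ± 0.23 SE, adjusted p = 5.08e-07). *Cd46*, a membrane cofactor, passed as lower in podocytes, all under 100, than in mesangial cells (measured -0.62 ± 0.20, adjusted p = 0.0465). Its lower bound was 0.982-fold, so no difference is read from this call. It passed in 0 of 6 fits with 1 array left out (adjusted p up to 0.124). *Cd93* and *Thbd*, for thrombomodulin, were at least 4.46-fold and 2.45-fold higher in endothelial than in mesangial cells, where 2 of 3 arrays were under 100 (measured -2.24 ± 0.29 in mesangial against endothelial cells, adjusted p = 2.97e-04, and -1.75 ± 0.38, adjusted p = 0.00678). Without mesangial array C, also added after the data were seen, the measured differences of *C1s*, *Cd93* and *Thbd* with endothelial cells were 4.74, -2.61 and -2.30. In that setting, with all mesangial arrays under 100, *Cd93* was also at least 1.68-fold higher in podocytes than in mesangial cells (measured 0.87). *Thbd* passed there too (measured 1.27). Endothelial marker sums were 4434 to 5877 in wild type podocytes and 2362 and 2748 on wild type mesangial arrays A and B. Their part in these differences was not tested. In the same setting *Clu* was at least 1.51-fold higher in endothelial than in mesangial cells (measured -0.82 in mesangial against endothelial cells). *Cr1l*, which encodes the membrane regulator Crry, reached a mean of 500 in mutant mesangial and in endothelial cells, and *C1qa*, *C1qb* and *C1qc*, the subunits of C1q, stayed under 100 on all arrays.

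The genes whose log2 signals followed each tested member most closely over the 18 arrays were sought among 11127 clusters, as a description in which the points share cell types. They were *Vegfa* (r = 0.985) and *Podxl* (0.979) for *Cd55*, *Srgap1* (0.964) and *Atp8b1* (0.962) for *Cd59a*, and *Figf* (0.984) and *Cp* (0.981) for *Serping1*. For *Cfb* they were *Irf7* (0.898) and *Oas1a* (0.885), for *C3* *Stc2* (0.961) and *Lgals3* (0.916), and for *C1ra* *Trf* (0.841) and *Adamts10* (0.823).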

How the data were processed

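RNA of GFP-positive cells sorted from sieved and dissociated glomeruli was amplified and hybridised to Affymetrix Mouse Gene ST arrays. The authors deposited intensity values on a linear scale, made by RMA (background correction, normalization between arrays and summary over probes, on the mm9 annotation of the array). A further 18 columns, headed as normalized values of the same arrays, were not used. The sample records name Expression Console, the paper's methods GeneSpring, and the series record a different array type (Exon ST) with GeneBASE software, which goes against the file header. Columns were assigned to groups by the cell type and genotype in their names, and arrays A, B and C follow column order, which carries no meaning. The labels call the samples biological triplicates.

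Log2 signals were modelled in R 4.3.3 with limma 3.58.1 (lmFit, then eBayes) and no covariate. Clusters entered with a signal of at least 100 on at least 1 array compared. Genotypes were compared within each cell type over 6 arrays, wild type cell types over 9 and interactions over 18 arrays (called at an adjusted p below 0.05). Adjusted p-values are Benjamini-Hochberg values over all clusters of a comparison, and intervals are 95% intervals of the fit. The 9 members and all lists of genes and motifs were chosen with earlier results of these data known. The text names all members, and other complement genes that passed a comparison or reached a group mean of 500. For each member that reached 100, it also names the 2 clusters most like it. The code was tested on simulated data. Alternatives were other signal minimums, normalizations, fits, call rules, offsets and left-out arrays. The number of arrays, 3 a group, limits the precision. Another complement gene of the list is not reported here.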

Additional observations from a re-analysis of the deposited data

How the results depend on the processing

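No paired analysis was possible because the labels give no 2 groups the same replicate numbers. *Cfb* in endothelial cells passed under every setting run except the stringent screen, where the count of members went from 1 to 0 as no array reached 500, and the count stayed between 1 and 1 with single arrays left out. In podocytes the count went from 1 (*C3*) to 0 with no signal minimum (unadjusted p = 0.0649), with array medians subtracted (0.0557), with the adjusted rule and with the stringent screen, and lay between 0 and 1 with arrays left out, *C3* ranging from 0.64 to 1.46. In mesangial cells the count went from 0 to 1 with a trended and robust fit, array medians subtracted, quantile normalization or all 18 arrays in 1 fit, each time by *Cd59a* (-0.87 to -0.89, unadjusted p 0.0270 to 0.0474), and lay between 0 and 1 with arrays left out, by *Serping1* (0.59) without mutant array B or *Cd59a* (-1.21) without control array B.

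In wild type podocytes against mesangial cells 3 members passed with 50 added to the signal, in place of 5, and 4 to 5 with arrays left out. Against endothelial cells 2 to 3 passed for podocytes and 2 to 3 for mesangial cells. The interaction of endothelial cells and podocytes gave 1 member with array medians subtracted (*Cfb*, 1.53, adjusted p = 0.0382), and 0 to 1 with arrays left out (*Cfb* 1.41 without mutant podocyte array A, *C3* without mutant podocyte array C, its endothelial signals all under 100). The endothelial against mesangial interaction gave 0 to 1 (*Cfb*, 1.30, adjusted p = 0.0448, without mutant mesangial array C) and the podocyte against mesangial one 0 to 0.

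Signs turned. *C1ra* in mesangial cells was 0.016 as a mean over clusters, *Cd55* in podocytes -0.014 with array medians subtracted, *Cd59a* in podocytes 0.023 and *Cd55* in endothelial cells -0.081 under quantile normalization. *C3* in mesangial against endothelial cells was 0.043 with array medians subtracted and 0.014 under quantile normalization, and the *Cd55* interaction of endothelial cells and podocytes -0.20 under quantile normalization and -0.069 as a mean over clusters. With arrays left out, *Cfb* in mesangial cells ranged from -0.036 to 0.65, *Cd55* from -0.10 to 0.11 in podocytes and -0.17 to 0.22 in endothelial cells, *Cd59a* in podocytes from -0.41 to 0.20, *Serping1* in endothelial cells from -0.26 to 0.088 and *C3* in mesangial against endothelial cells from -0.12 to 0.068. The interactions of *Cd55* ranged from -0.38 to 0.86 (podocytes and mesangial cells), -0.37 to 0.86 (endothelial and mesangial cells) and -0.19 to 0.20 (endothelial cells and podocytes), and that of *C1ra* from -0.014 to 0.33 (endothelial and mesangial cells). Of other single members' values, 379 kept direction and call under the other settings and 365 with arrays left out. The causes were not tested.

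Over all clusters the calls (595 in mesangial cells, 679 in podocytes, 433 in endothelial cells) fell by over 1.5 times in all 3 with 50 added (361 in mesangial and 266 in endothelial cells), to 252, 7 and 128 under the adjusted rule and 60, 79 and 56 under the stringent screen. It rose to 1235 in podocytes without mutant array A. The podocyte and mesangial interaction, with 97 calls, ranged from 44 to 423 with arrays left out. The interaction of endothelial cells and podocytes ranged from 78 (quantile normalization) to 970 (array medians subtracted) around 285 calls, its median moving by -0.11 and 0.10, and from 30 to 1865 with arrays left out (1865 without mutant podocyte array A). That of endothelial and mesangial cells gave 262 with array medians subtracted and 236 with 50 added, against 145, and 85 to 177 with arrays left out (85 without mutant endothelial array A, 86 without control endothelial array C).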
